A study of Mus musculus with 103 samples.

Results

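The 10 genes described here serve leukocyte adhesion and were followed through the mouse aortic arch. They were picked by name: Vcam1, Icam1, Icam2, Selp and Sele, called endothelial here, and Selplg, Itga4, Itgal, Itgam and Itgb2, called the leukocyte side. The names follow the role in adhesion and do not say which cells of the arch made the RNA. All 10 were present among the 51456 gene symbols of the deposited files, and all 10 passed the filter on low values that 14637 genes met, namely 5 or more libraries with a value not under 1. RNA came from 57 ApoE-KO and 46 WT mice, all ovariectomized C57BL/6 females, 1 animal per library, that ate a diet with 42% of its calories as fat. ApoE-KO mice lack apolipoprotein E, the ligand through which the liver clears remnant lipoproteins, and WT mice carry the gene. Both genotypes were injected under the skin every week with Scl-Ab, at 10 mg/kg, or with Vehicle. Scl-Ab is r13C7, the sclerostin antibody romosozumab rebuilt on rat sequences for use in rodents. The arch was taken after 3, 8 or 16 weeks (day22, day57 and day113), at 12 to 13, 17 to 18 and 25 to 26 weeks of age. Libraries numbered 9 ApoE-KO Scl-Ab, 8 ApoE-KO Vehicle, 6 WT Scl-Ab and 8 WT Vehicle in week 3. Week 8 had 10, 10, 9 and 5 in those groups, and week 16 had 10, 10, 8 and 10. Every mouse, WT and Vehicle included, was ovariectomized and on the fat-rich diet, so no group shows an intact or chow-fed aorta. The question behind the design was how the aortic transcriptome responds to Scl-Ab in each genotype.

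Leukocytes leave the blood in steps. Selectins on activated endothelium, P-selectin (Selp) and E-selectin (Sele), catch passing cells through the glycoprotein PSGL-1 (Selplg) and let them roll. Integrins on the leukocyte then bind immunoglobulin-type molecules on the endothelium: VLA-4, whose alpha chain is Itga4, binds VCAM-1, and LFA-1 (Itgal with Itgb2) and Mac-1 (Itgam with Itgb2) bind ICAM-1, while LFA-1 also binds ICAM-2. In atherosclerosis this route brings monocytes into the artery wall, and VCAM-1, ICAM-1 and the selectins are classical products of activated endothelium, whereas ICAM-2 is present on resting endothelium.

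The genes lie on separate chromosomes for the most part (GRCm38, GENCODE M21, all protein coding). Sele (chr1:164048234-164057677, plus strand) and Selp (chr1:164115264-164150026, plus strand) are neighbours, as are, on a larger scale, Itgal (chr7:127296260-127335138, plus strand) and Itgam (chr7:128062640-128118491, plus strand). Icam1 lies at chr9:21015985-21028817 (plus strand), Icam2 at chr11:106377656-106388075 (minus strand) and Vcam1 at chr3:116109949-116129688 (minus strand). Selplg lies at chr5:113818536-113832644 (minus strand), Itga4 at chr2:79255426-79333123 (plus strand) and Itgb2 at chr10:77530252-77565708 (plus strand).

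The RefSeq promoter table (GRCm38.p6) held an entry for 5 of the 10 genes: Icam1, Selp, Sele, Itga4 and Itgam. The windows of 4 are printed because they let the inducible endothelial genes be set beside each other and beside a gene of the leukocyte side. Each is the 250 bases before the RefSeq start, 5′ to 3′ on the plus strand, and capitals mark a motif found on either strand: GGANNTTCC, a form of the site bound by NF-kB, GAGGAA, a core of the sites bound by the myeloid factor PU.1, or the element TATAAA, where the basal machinery assembles.
Icam1, chr9:21015690-21015939: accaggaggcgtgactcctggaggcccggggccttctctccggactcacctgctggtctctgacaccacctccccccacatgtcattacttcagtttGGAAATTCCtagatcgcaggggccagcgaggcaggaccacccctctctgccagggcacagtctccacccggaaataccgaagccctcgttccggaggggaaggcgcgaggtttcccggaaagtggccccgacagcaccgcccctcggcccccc
Sele, chr1:164047984-164048233: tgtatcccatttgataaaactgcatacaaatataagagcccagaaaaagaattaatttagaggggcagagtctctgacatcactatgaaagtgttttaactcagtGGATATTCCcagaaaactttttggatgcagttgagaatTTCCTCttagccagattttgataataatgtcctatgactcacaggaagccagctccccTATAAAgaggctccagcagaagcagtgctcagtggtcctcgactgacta
Selp, chr1:164115014-164115263: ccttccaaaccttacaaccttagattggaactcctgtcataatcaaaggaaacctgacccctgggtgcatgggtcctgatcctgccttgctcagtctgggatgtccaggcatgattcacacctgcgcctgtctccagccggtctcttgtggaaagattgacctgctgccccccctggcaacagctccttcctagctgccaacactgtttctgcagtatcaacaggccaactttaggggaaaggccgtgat
Itgam, chr7:128062390-128062639: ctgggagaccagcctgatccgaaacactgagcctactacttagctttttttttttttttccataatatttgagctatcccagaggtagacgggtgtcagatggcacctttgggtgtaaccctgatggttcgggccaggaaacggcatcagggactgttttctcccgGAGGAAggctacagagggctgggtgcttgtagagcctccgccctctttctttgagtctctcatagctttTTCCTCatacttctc
The Icam1 window held GGAAATTCC from 153 to 145 bases before the start, and the Sele window held GGATATTCC from 145 to 137 bases before it. The letters GGANNTTCC occur in 3.59% of the 32851 promoter windows of this length. The Sele window also held TATAAA, which occurs in 12.4% of windows, and 1 copy of GAGGAA on the minus strand, and the Itgam window held GAGGAA 84 to 79 bases before the start and its reverse complement 15 to 10 bases before it. GAGGAA occurs in 23.3% of windows. The Selp and Itga4 windows held none of these letters. A match of letters describes the window and shows no binding. The letters were chosen after the sequences were seen, so the shares of windows do not measure how unusual a match is.

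The deposited values are FPKM-type. The submitters call them FPKQ, which the labels do not define, so levels of different genes are set side by side below on the understanding that this unit is scaled per length as FPKM is. Read depth is unknown. An approximate relative depth ran from 0.824 to 1.58 of the median library, and no counting interval can be given. The targeted gene followed its label in every library: Apoe had values of 4.31 to 18.2 over the ApoE-KO libraries and 220 to 617 over the WT libraries. The median correlation of a library with its own group over all tested genes was 0.98, and 4 libraries were under 0.95. They were replicates 9 of ApoE-KO Scl-Ab and 1 of ApoE-KO Vehicle in week 3, 7 of ApoE-KO Scl-Ab in week 16 and 4 of WT Vehicle in week 3. Leaving them out changed no call on any of the 10 genes in any comparison. The defining genes of endothelium and of leukocytes were present: none of 10 endothelial, 10 pan-leukocyte or 10 macrophage markers was at 0 throughout a group.

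ApoE-KO aortas had more RNA of nearly all these genes than WT aortas, at every time and under both treatments. Under Scl-Ab, 8 of 10 genes were called higher in ApoE-KO in week 3, 9 in week 8 and 9 in week 16, where 13.3%, 14.3% and 17.6% of all tested genes were called higher. Under Vehicle the counts were 9, 8 and 9, against 11.6%, 10.2% and 15.5% of all tested genes. Called means an adjusted p under 0.05 in limma, with Benjamini-Hochberg adjustment over all 14637 genes. One gene, Icam2, was called lower, in week 16 under Vehicle, where 21.1% of tested genes were lower. The median log2 difference of the 10 genes was 1.27, 1.63 and 1.65 under Scl-Ab and 1.27, 1.49 and 1.58 under Vehicle, while that of all tested genes lay between -0.06 and 0.01. In these bulk samples, more cells of a type and more RNA per cell cannot be told apart.

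**Figure D1:**
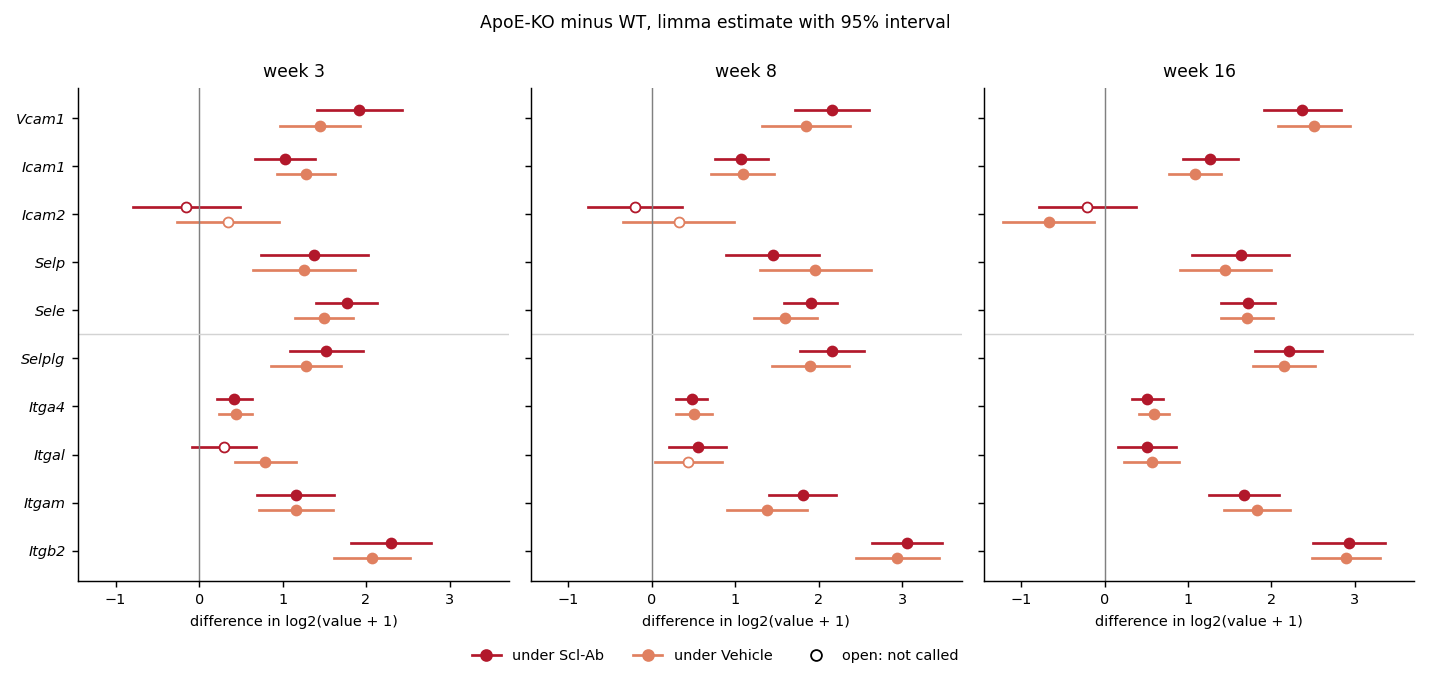
Difference between ApoE-KO and WT aortas in log2(value + 1) for each gene, as the limma estimate (point) with its 95% interval (bar), by week; open points were not called. The endothelial genes stand above the grey line and the leukocyte genes below it, Itgb2 reached 3.06 in week 8 under Scl-Ab, and Icam2 lies on both sides of 0.

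E-selectin, which is made by activated endothelium, separated the genotypes completely. In week 3, Sele had values of 2.30 at the lowest, 4.04 at the median and 5.02 at the highest in ApoE-KO Scl-Ab aortas, against 0.107, 0.227 and 0.921 in WT Scl-Ab aortas. The ApoE-KO Vehicle aortas of week 3 had 1.59, 2.01 and 6.82, against 0.0725, 0.162 and 0.507 in WT Vehicle aortas. Over the whole experiment the lowest of 57 ApoE-KO libraries had 0.972 and the highest of 46 WT libraries 0.921, so no library of one genotype entered the range of the other. In week 8 the ApoE-KO Vehicle aortas had 0.972, 3.06 and 7.82, against 0.279, 0.372, 0.184, 0.162 and 0.649 in the 5 WT Vehicle aortas. In week 16 the ApoE-KO Vehicle aortas had 2.14, 2.63 and 5.32, against 0.0591, 0.231 and 0.623 in WT Vehicle aortas. Medians thus stood 12.4-fold, 10.9-fold and 11.4-fold higher in ApoE-KO under Vehicle. Under Scl-Ab the ratio of medians was 17.8, 16.6 and 14.9. On the log2(value + 1) scale, which shrinks changes of low genes, Sele was 1.77 ± 0.18 (SE), 1.91 ± 0.16 and 1.72 ± 0.17 higher under Scl-Ab, and 1.50 ± 0.17, 1.60 ± 0.19 and 1.71 ± 0.16 higher under Vehicle, with limma adjusted p-values of 7.31e-11 or less.

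P-selectin, which endothelium and platelets hold in granules ready for release, was higher in ApoE-KO by a smaller ratio. Selp had 7.01, 15.7 and 23.1 (lowest, median and highest) in the ApoE-KO Scl-Ab aortas of week 3, against 3.33, 4.46 and 6.38 in WT Scl-Ab aortas. The same 3 values were 4.12, 7.78 and 28.3 in ApoE-KO Vehicle aortas and 0.814, 3.63 and 9.29 in WT Vehicle aortas of week 3, where the groups overlapped. In week 16 under Vehicle they were 7.75, 16.4 and 26.1 in ApoE-KO and 1.66, 5.63 and 10.9 in WT, again with overlap. The log2 difference lay between 1.38 ± 0.32 and 1.63 ± 0.29 (SE) under Scl-Ab and between 1.25 ± 0.31 and 1.96 ± 0.34 under Vehicle, and all 6 were called (limma adjusted p at most 0.00161). Of 4 tested platelet markers, 1 was called higher in week 3 and 1 lower in week 16, both under Scl-Ab, and none under Vehicle. Of all tested genes 13.3% were higher in week 3 and 26.3% lower in week 16 under Scl-Ab. These counts alone do not set platelet markers apart from other genes. The median summed value of 6 platelet markers ran from 24.1 to 35 in ApoE-KO groups and 22.4 to 30.5 in WT groups.

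VCAM-1 gave the most abundant transcript of the 10 and one of the larger differences. In week 3, Vcam1 had values of 36.9, 101.8 and 129 (lowest, median and highest) in ApoE-KO Scl-Ab aortas, against 21, 22.3 and 30.8 in WT Scl-Ab aortas. Under Vehicle in week 3 it had 44.1, 62.8 and 278 in ApoE-KO aortas, against 20.7, 30.6 and 39.4 in WT aortas. In week 16 it had 86.5, 216 and 289 in ApoE-KO Scl-Ab aortas, against 21.6, 38.3 and 49.7 in WT Scl-Ab aortas. Under Vehicle in week 16 the values were 142, 211 and 347 in ApoE-KO, against 23, 37.5 and 55.0 in WT. The genotypes did not overlap in any of these comparisons. They did in week 8 under Vehicle, where ApoE-KO aortas had 126, 167 and 243 and the WT aortas 25.3, 41.6, 25.4, 138 and 53.7. The WT library at 138 is replicate 4, which also had the highest Spp1 of its group (177, against 1.59 to 13.5 in the other 4) and the lowest Pecam1 (31.4, against 109.4 to 210). Without it the difference was 2.24 and was called. The log2 difference was 1.92 ± 0.26 (SE), 2.16 ± 0.22 and 2.37 ± 0.23 under Scl-Ab and 1.45 ± 0.24, 1.84 ± 0.27 and 2.51 ± 0.22 under Vehicle (limma adjusted p at most 3.49e-06).

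ICAM-1, which endothelium and macrophages both make, was higher in ApoE-KO by a similar step at each time. Icam1 had values of 14.7, 17.0 and 40.6 in ApoE-KO Vehicle aortas of week 3, against 4.66, 8.52 and 12.3 in WT Vehicle aortas. In week 16 it had 17.2, 26.3 and 33.8 in ApoE-KO, against 6.34, 12.4 and 16.4 in WT. The groups did not overlap at any time under either treatment. The log2 differences were 1.03 ± 0.18 (SE), 1.07 ± 0.16 and 1.27 ± 0.16 under Scl-Ab and 1.28 ± 0.17, 1.09 ± 0.19 and 1.08 ± 0.16 under Vehicle, each called (limma adjusted p at most 1.06e-05).

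ICAM-2, the ligand of LFA-1 on resting endothelium, did not follow the other endothelial genes. Icam2 had values of 11.1, 20.6 and 45.9 in ApoE-KO Scl-Ab aortas of week 3, against 14.2, 23.2 and 30.0 in WT Scl-Ab aortas. In week 16 under Vehicle it had 2.88, 9.46 and 19.8 in ApoE-KO and 5.21, 17.6 and 30.1 in WT, with wide overlap. The log2 difference was -0.15, -0.20 and -0.21 under Scl-Ab and 0.35, 0.32 and -0.67 under Vehicle. Only the last was called, at a limma adjusted p of 0.0472 and a 95% interval of -1.21 to -0.12. That call is weak: it was lost in 13 of the 20 fits that left out 1 library (adjusted p up to 0.143), with no filter on low values (0.0924), after rescaling by median-of-ratios (0.0751) and with the compared groups alone in the fit (0.091). Pecam1, the endothelial adhesion gene set beside it, fell by 0.58 in the same comparison (adjusted p = 0.0491).

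**Figure D2:**
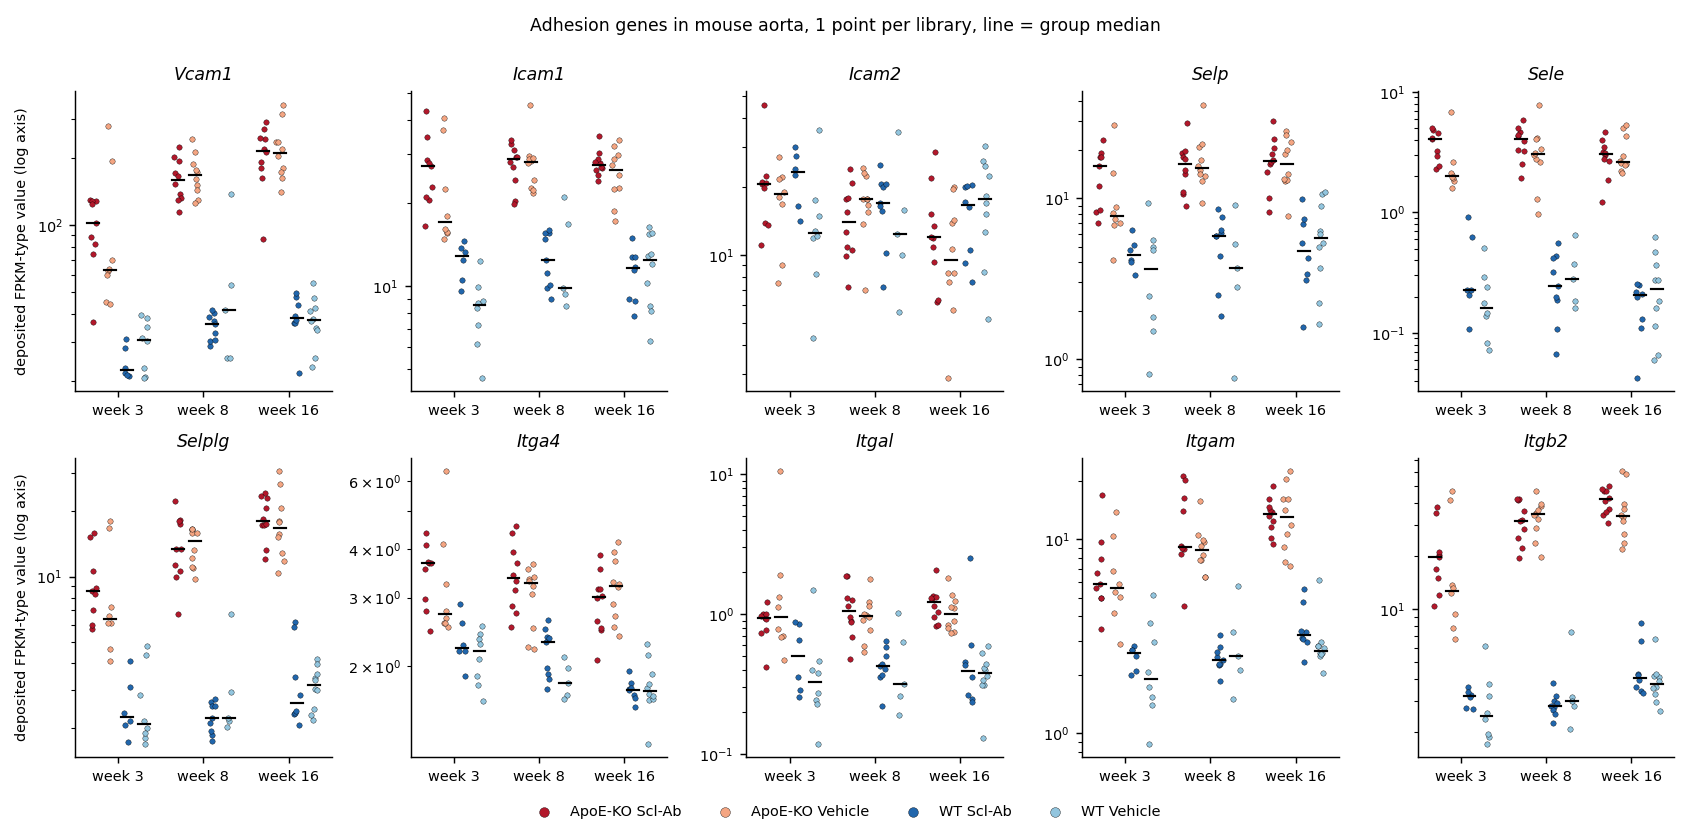
FPKM-type value of each of the 10 genes (log axes that differ between panels) in every library, by week and group, with the group median as a line. Sele lies at 0.972 or more in ApoE-KO and 0.921 or less in WT, Itgb2 and Icam1 do not overlap between genotypes within any week and treatment, and the Icam2 groups overlap throughout.

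On the leukocyte side the beta chain shared by LFA-1 and Mac-1 gave the largest log2(value + 1) difference of the 10 in each comparison. With a pseudocount of 0.1, Sele exceeded it in 5 of 6, for example at 3.29 against 3.16 for Itgb2 in week 16 under Vehicle. Itgb2 had values of 10.4, 19.8 and 37.8 (lowest, median and highest) in ApoE-KO Scl-Ab aortas of week 3, against 2.68, 3.20 and 3.61 in WT Scl-Ab aortas. In week 8 the ApoE-KO Vehicle aortas had 19.6, 34.6 and 47.1, and the 5 WT Vehicle aortas 3.15, 2.80, 2.08, 7.42 and 2.98. In week 16 the ApoE-KO Vehicle aortas had 21.9, 33.7 and 60.7, against 2.63, 3.75 and 6.71 in WT Vehicle aortas. The genotypes did not overlap at any time under either treatment. The log2 difference was 2.30 ± 0.24 (SE), 3.06 ± 0.21 and 2.93 ± 0.22 under Scl-Ab and 2.08 ± 0.23, 2.94 ± 0.25 and 2.89 ± 0.20 under Vehicle (limma adjusted p at most 9.97e-12).

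PSGL-1, the selectin ligand on leukocytes, and the Mac-1 alpha chain of myeloid cells moved the same way. In week 16, Selplg had 10.4, 16.8 and 30.7 in ApoE-KO Vehicle aortas, against 2.16, 3.17 and 4.18 in WT Vehicle aortas. Its log2 difference was 1.52 ± 0.22 (SE), 2.16 ± 0.19 and 2.20 ± 0.20 under Scl-Ab and 1.28 ± 0.21, 1.90 ± 0.23 and 2.15 ± 0.19 under Vehicle, all called. In week 16, Itgam had 7.28, 13.0 and 22.4 in ApoE-KO Vehicle aortas, against 2.05, 2.66 and 6.17 in WT Vehicle aortas. Its log2 difference was 1.16 ± 0.23, 1.81 ± 0.20 and 1.67 ± 0.21 under Scl-Ab and 1.16 ± 0.22, 1.38 ± 0.24 and 1.83 ± 0.20 under Vehicle, all called. Both genes overlapped between genotypes only in week 3 under Vehicle.

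The VLA-4 alpha chain Itga4 had 2.39, 3.22 and 4.18 in ApoE-KO Vehicle aortas of week 16, against 1.26, 1.72 and 2.28 in WT Vehicle aortas, with no overlap. Its log2 difference lay between 0.42 and 0.51 under Scl-Ab and between 0.44 and 0.59 under Vehicle, called 6 times (limma adjusted p at most 0.00199). The LFA-1 alpha chain Itgal was the lowest of the 10 genes in the ApoE-KO aortas of week 16 and was called higher in ApoE-KO in 4 of 6 comparisons. Its level is near or under the added 1, so log2(value + 1) understates its differences: the week 16 difference under Vehicle was 1.27 with a pseudocount of 0.1. It had 0.729, 0.998 and 1.82 in ApoE-KO Vehicle aortas of week 16, against 0.130, 0.383 and 0.594 in WT Vehicle aortas, and was 0.57 ± 0.17 higher on the log2 scale (SE, limma adjusted p = 0.00403). The 2 comparisons without a call were week 3 under Scl-Ab (0.30, 95% interval -0.09 to 0.68) and week 8 under Vehicle (0.43, 95% interval 0.03 to 0.84, adjusted p = 0.14). The week 8 comparison was called with a pseudocount of 0.1 (1.02, adjusted p = 0.0382), and the week 16 call under Scl-Ab was lost with clock genes as covariates (0.45, adjusted p = 0.0519). In week 3 under Vehicle the difference of 0.79 was called (adjusted p = 0.000913), with 1 ApoE-KO library, replicate 5, at 10.5 beside 0.468 to 1.89 in the other 7. That library also had the highest Cd3e, a T cell gene, of its group (3.48, against 0.105 to 0.591). Without it the difference was 0.47 and the call was kept. The call was lost with the compared groups alone in the fit (adjusted p = 0.131).

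Counted as genes whose groups did not overlap at all, ApoE-KO was above WT for 7, 7 and 7 of the 10 genes under Scl-Ab, where 3.11%, 5.34% and 7.34% of tested genes were. Under Vehicle it was above WT for 4, 7 and 8 genes, where 0.956%, 4.55% and 6.48% of tested genes were.

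General leukocyte and macrophage RNA moved with these genes. Of 7 smooth muscle markers, 0, 5 and 7 were called lower in ApoE-KO in weeks 3, 8 and 16 under Scl-Ab and 3, 0 and 7 under Vehicle. Of all tested genes 12.4%, 17.9% and 26.3% were lower under Scl-Ab and 13.4%, 5.32% and 21.1% under Vehicle. The summed smooth muscle value in week 16 ran from 8401 to 13760 in ApoE-KO Vehicle aortas and from 12860 to 17930 in WT Vehicle aortas. All 10 pan-leukocyte markers were called higher in ApoE-KO in each of the 6 comparisons, and their summed value in week 16 ran from 237 to 652 in ApoE-KO Vehicle aortas and from 43.8 to 92.2 in WT Vehicle aortas. Of 10 macrophage markers 8 or 9 were higher, and 1 was lower in each of 3 comparisons. Their summed value ran from 1317 to 4106 in ApoE-KO Vehicle aortas and from 288 to 591 in WT Vehicle aortas of week 16. Endothelial markers did not move that way: at most 3 of 10 were called in any of the 6 comparisons of ApoE-KO with WT. Of all tested genes 15.5% to 43.9% were called in these comparisons, so this count alone does not set endothelial markers apart from other genes. The summed endothelial value in week 16 ran from 145 to 422 in ApoE-KO Vehicle aortas and from 177 to 505 in WT Vehicle aortas. Set over Pecam1 in the same library, the median ratio of Vcam1 in week 16 was 2.07 in ApoE-KO Vehicle aortas and 0.231 in WT Vehicle aortas, with ranges of 0.942 to 5.67 and 0.175 to 0.536. The same ratio for Sele was 0.0303 in ApoE-KO and 0.00142 in WT, with ranges of 0.0131 to 0.0767 and 0.000475 to 0.00265. For Icam2 it was 0.0936 in ApoE-KO and 0.104 in WT, with ranges of 0.0605 to 0.137 and 0.0826 to 0.13. In this comparison the ratios of Vcam1 and Sele did not overlap between genotypes, and that of Icam2 did. In other comparisons they overlapped: Vcam1 in week 3 under Scl-Ab (0.232 to 0.887 in ApoE-KO, 0.116 to 0.233 in WT), in week 3 under Vehicle (0.241 to 2.16 in ApoE-KO, 0.142 to 0.687 in WT) and in week 8 under Vehicle (0.582 to 2.04 in ApoE-KO, 0.197 to 4.4 in WT). Sele overlapped in week 8 under Vehicle (0.00508 to 0.049 in ApoE-KO, 0.00142 to 0.00515 in WT). Within groups Vcam1 did not vary with Pecam1 (Pearson r -0.054, Spearman 0.087), so its ratio is no value per endothelial cell. Which cells made the Vcam1 RNA was not tested.

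The leukocyte genes differed in how they stood to Ptprc, which encodes the pan-leukocyte protein CD45. In week 16 under Vehicle the median ratio of Selplg to Ptprc was 1.71 in ApoE-KO and 1.46 in WT, and that of Itgam was 1.22 in ApoE-KO and 1.36 in WT, both with overlapping ranges. For Itgb2 it was 3.44 in ApoE-KO and 1.89 in WT, with ranges of 2.95 to 3.71 and 1.42 to 3.87 that overlapped. The Itgb2 ratios also overlapped in week 3 under both treatments. They did not in week 8 under Vehicle (3.06 to 4.55 in ApoE-KO, 1.29 to 2.07 in WT), nor under Scl-Ab in weeks 8 and 16. For Itga4 the median ratio in week 16 under Vehicle was 0.297 in ApoE-KO and 0.807 in WT, with ranges of 0.232 to 0.395 and 0.672 to 1.65. Relative to Ptprc, Itga4 thus lay lower in every ApoE-KO library of week 16 under Vehicle, although its own level was higher. Its ratios overlapped between genotypes in week 3 under both treatments and in week 8 under Vehicle (0.244 to 0.471 in ApoE-KO, 0.435 to 1.24 in WT). The median ratio of Itgal in week 16 under Vehicle was 0.109 in ApoE-KO and 0.191 in WT, with overlapping ranges. What part leukocyte or smooth muscle content has in these differences was not tested.

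**Figure D3:**
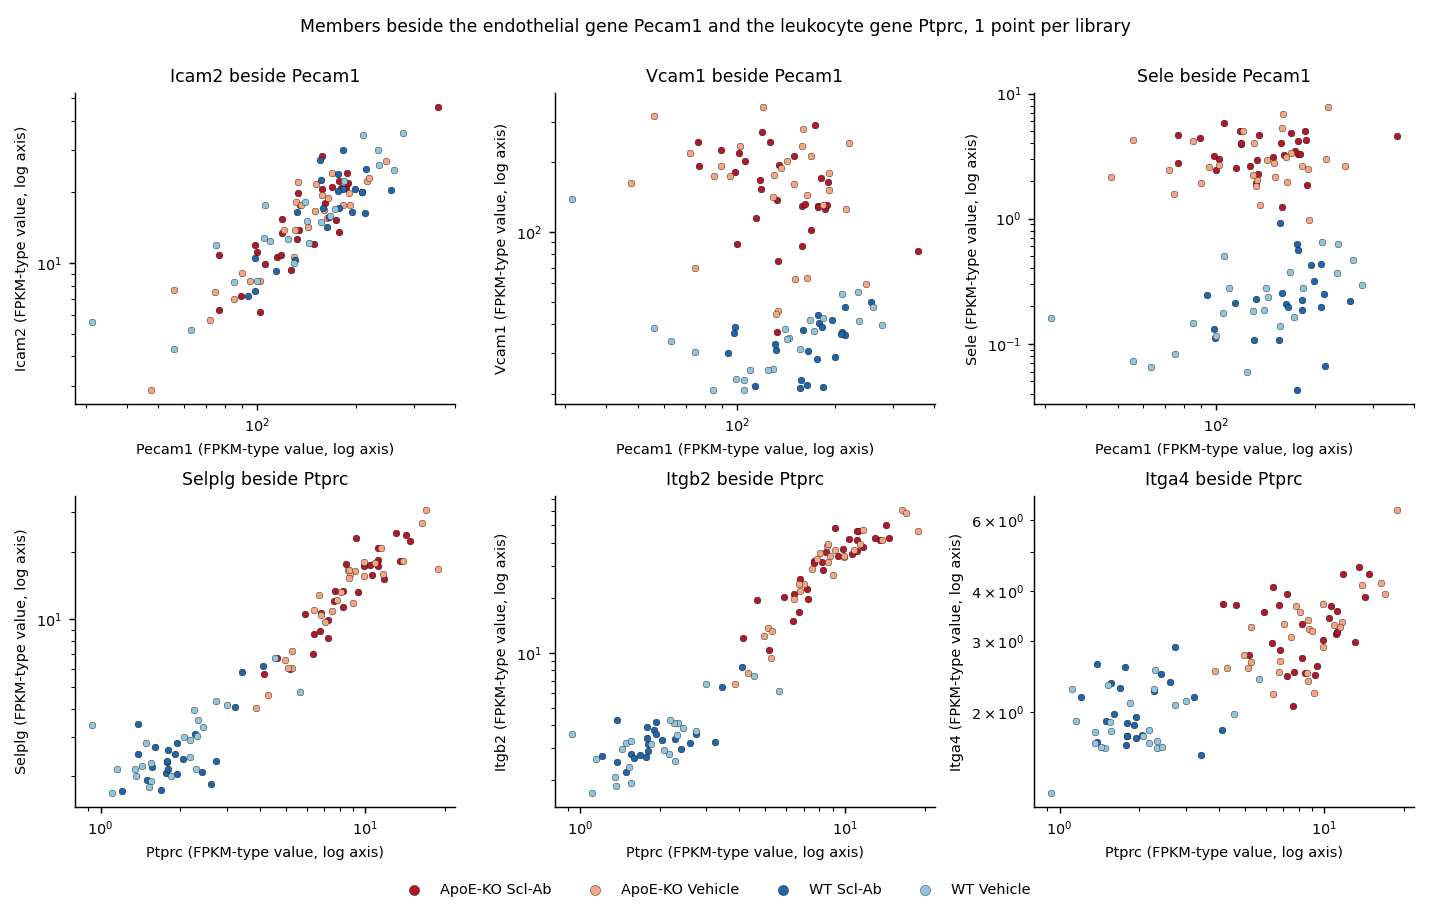
Values of 6 of the genes against Pecam1 (top row) or Ptprc (bottom row) in each library, log axes, coloured by group. Icam2 runs along 1 band with Pecam1 in both genotypes, the median ratios of Vcam1 and Sele to Pecam1 are higher in ApoE-KO at each week and treatment, and Itga4 rises less with Ptprc than Itgb2 does.

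The order of levels differed between the genotypes. In ApoE-KO Vehicle aortas of week 16 the mean values ran from Vcam1 (222) through Itgb2 (36.6), Icam1 (25.8), Selplg (18.0), Selp (17.2), Itgam (13.6), Icam2 (11.1), Sele (3.21) and Itga4 (3.20) to Itgal (1.07). In WT Vehicle aortas of week 16 they ran from Vcam1 (37.8) through Icam2 (18.0), Icam1 (11.9), Selp (6.04), Itgb2 (3.92), Selplg (3.13), Itgam (2.98), Itga4 (1.78) and Itgal (0.384) to Sele (0.26). Among ApoE-KO neighbours the steps from Vcam1 to Itgb2, Icam1 to Selplg, Icam2 to Sele and Itga4 to Itgal were larger than the SD of both genes, and the others were not. Among WT neighbours the steps from Vcam1 to Icam2, Icam1 to Selp, Itgam to Itga4 and Itga4 to Itgal were. Icam2 stood directly under Vcam1 in these WT aortas, and Sele had the lowest mean. The place of Icam2 below Itgam in the ApoE-KO Vehicle aortas was not shared by ApoE-KO Scl-Ab aortas of week 16, where Icam2 averaged 13.5 and Itgam 13.4.

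The genotype difference in the Vehicle aortas was compared between times. Vcam1 was the only gene of the 10 whose difference was called as larger in week 16 than in week 3, by 1.06 ± 0.33 on the log2 scale (SE, 95% interval 0.41 to 1.71, limma adjusted p = 0.0429), where 4.22% of tested genes were called. This call is weak as well: it was lost in 18 of 36 fits that left out 1 library (adjusted p up to 0.11), and with a pseudocount of 0.1 (0.0518), no filter (0.0899), the compared groups alone (0.107), clock genes as covariates (0.0543) or the run of animal numbers (0.0533). Cd68, a macrophage gene, gave 1.1 in the same contrast (adjusted p = 0.0254). Selplg was 0.87 higher (adjusted p = 0.0585) and Itgb2 0.82 (adjusted p = 0.121), both short of a call. Between weeks 8 and 3, and between weeks 16 and 8, limma called none of the 10, with 1 gene at an unadjusted p under 0.05 in each, and 0.273% and 0.0137% of tested genes were called. The study sequenced in batches that are not assigned to libraries. Differences between batches therefore cannot be told apart here from those between times, genotypes or treatments.

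Few of these genes were called between Scl-Ab and Vehicle. In ApoE-KO aortas limma called none of the 10 in week 3, 8 or 16, with 2, 0 and 0 genes at an unadjusted p under 0.05, and 9.15%, 1.81% and 0.0137% of tested genes were called. In WT aortas it called 1 gene, Icam1, in week 3 and none in weeks 8 and 16, with 2, 0 and 0 genes at an unadjusted p under 0.05. Of all tested genes 26.9%, 0% and 0.00683% were called there. Over the mean of the 3 times none was called in either genotype, with 1 gene in ApoE-KO and 0 in WT at an unadjusted p under 0.05, against 16.2% and 15.9% of tested genes called.

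Icam1 in week 3 had values of 9.57, 12.8 and 14.6 (lowest, median and highest) in WT Scl-Ab aortas, against 4.66, 8.52 and 12.3 in WT Vehicle aortas. It was 0.55 ± 0.19 higher on the log2 scale (SE, limma adjusted p = 0.0219), and the groups overlapped. The call was lost with the compared groups alone in the fit (adjusted p = 0.0592), with carry-over scores of neighbouring tissues (0.0576) or clock genes (0.351) as covariates, and without WT Vehicle replicate 8 (0.0712) or WT Scl-Ab replicate 2 (0.0582). Other tissue moved in the same comparison, in which 13.7% of tested genes were higher and 13.2% lower: 5 of 10 endothelial markers were called higher and 1 lower, and 6 of 7 brown adipocyte markers were called higher. The summed brown adipocyte value ran from 546 to 7663 in WT Scl-Ab aortas and from 131 to 4618 in WT Vehicle aortas. The carry-over fit above, in which the Icam1 difference was 0.57 and not called, held scores of adipocytes, skeletal muscle, cardiomyocytes and thymocytes constant. It held no endothelial score, and the part of endothelial content was not tested. Pecam1 was 0.51 higher without a call (adjusted p = 0.184). Icam2 had the largest log2 difference of the 10 genes in this comparison, 0.73, also without a call. It was called by limma with array weights (0.84, adjusted p = 0.0408) and without WT Vehicle replicate 6 (0.93, adjusted p = 0.0324). In ApoE-KO aortas Icam1 was 0.30 higher in week 3, with a 95% interval of -0.04 to 0.63.

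Among the ApoE-KO aortas of week 3, Sele came nearest to a call. It had 2.30, 4.04 and 5.02 in Scl-Ab aortas, against 1.59, 2.01 and 6.82 in Vehicle aortas, a log2 difference of 0.45 ± 0.17 (SE, limma adjusted p = 0.0753). The Vehicle library at 6.82, replicate 4, lay apart from the other 7, which reached 2.64 at most, and it also had the highest Vcam1 (278), Cd68 (158) and Spp1 (1106) of its group. Without it the Sele difference was 0.62 and was called (adjusted p = 0.00912), and likewise without Scl-Ab replicate 9 (0.48, adjusted p = 0.0362). Weighting libraries by their quality over all genes gave 5 calls, all higher with Scl-Ab: Vcam1 (0.55), Icam1 (0.49), Sele (0.49), Selplg (0.53) and Itgb2 (0.81). Leaving out the 4 libraries of low correlation with their group gave none. The number of calls in this comparison thus depended on how single libraries were weighted.

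For the other comparisons the intervals give the range of change that remains possible. In week 8 the 95% intervals of all 10 genes lay within -0.80 and 0.68 in ApoE-KO aortas on the log2(value + 1) scale. In WT aortas of week 8 they lay within -0.93 and 1.08. This scale shrinks changes of genes with low values, such as Sele and Itgal in WT aortas. In week 16 the 95% intervals of all 10 genes lay within -0.52 and 0.84 in ApoE-KO aortas and within -0.75 and 0.62 in WT aortas on the log2 scale. For Vcam1 the mean over the 3 times was 0.02 with an interval of -0.24 to 0.28 in ApoE-KO and -0.20 with an interval of -0.49 to 0.10 in WT. For Itgb2 it was 0.17 with an interval of -0.07 to 0.41 in ApoE-KO and 0.04 with an interval of -0.23 to 0.32 in WT. The response to Scl-Ab was not called as different between ApoE-KO and WT for any of the 10 in week 3, 8 or 16, by limma, with 0, 0 and 0 genes at an unadjusted p under 0.05. Of all tested genes 18.2%, 0% and 0% were called.

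**Figure D4:**
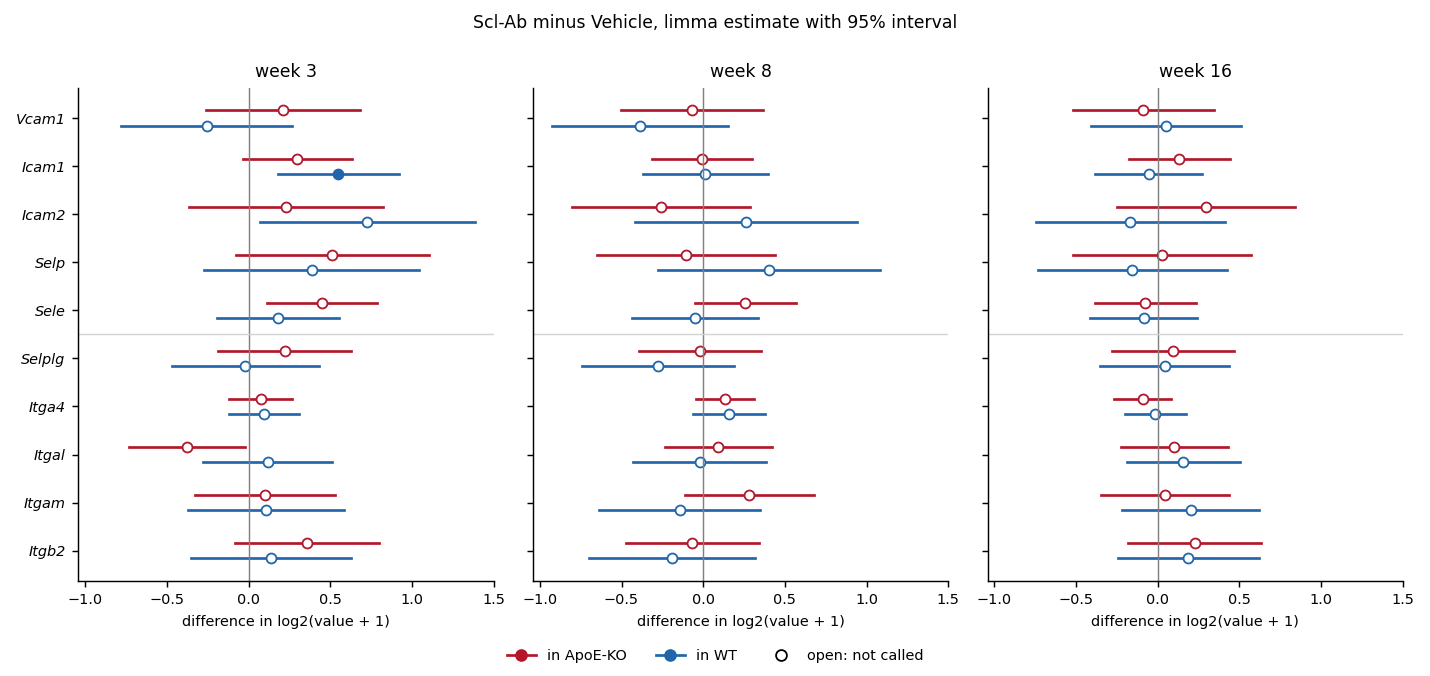
Difference between Scl-Ab and Vehicle aortas in log2(value + 1) for each gene, as the limma estimate (point) with its 95% interval (bar), by week and genotype; open points were not called. The 1 filled point is Icam1 in WT aortas of week 3 at 0.55.

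Other genes of the adhesion route were followed as lists, to be read against the 15.5% of tested genes called higher and 21.1% called lower in week 16 under Vehicle. Of 12 tested integrin chains outside the 10 genes, 5 were higher and 3 lower in ApoE-KO than in WT in week 16 under Vehicle. Itgax, the alpha chain of the myeloid integrin CD11c, averaged 24.3 ± 11 in ApoE-KO and 0.564 ± 0.237 in WT (SD, n = 10 each), a log2 difference of 3.92. Itga6, a laminin receptor chain, was 1.15 higher, and Itga1, a collagen receptor chain of smooth muscle, fell by 0.48. Of 11 tested genes of integrin activation, 7 were higher and 2 lower, among them Vav1 (2.25), a guanine nucleotide exchange factor of blood cells, and Fermt3 (1.72), kindlin-3, which switches integrins on. Of 12 tested selectin ligands and their glycosylating enzymes, 5 were higher and none lower. Cd44, which carries an E-selectin ligand form, averaged 45.5 ± 11.8 in ApoE-KO and 15.3 ± 2.64 in WT (SD, n = 10 each). Of 15 junction and transmigration genes, 5 were higher, such as Sirpa (2.15), a myeloid receptor for CD47, and 4 lower, such as Mcam (-0.84), a surface molecule of vascular muscle and endothelium. All 7 smooth muscle markers were lower in the same comparison, and their part in the lower values was not tested. Of 10 NF-kB feedback and target genes, 6 were higher and none lower, led by Tnfaip2 (2.17), with Traf1 (0.85), Tnfaip3 (0.68) and Nfkb2 (0.34).

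In WT aortas of week 3, where 13.7% of tested genes were higher and 13.2% lower with Scl-Ab, 3 of 12 selectin ligand genes were higher, 4 of 15 junction genes were higher and 2 lower, and 1 of 10 NF-kB genes was higher and 3 lower. In the same comparison none of the 12 other integrin chains was higher and 5 were lower, among them Itga5, the fibronectin receptor chain, at 72.3 ± 20.1 with Scl-Ab (SD, n = 6) and 151 ± 29.6 with Vehicle (SD, n = 8), and Itga9, which forms another VCAM-1 receptor, at 69 ± 17.1 with Scl-Ab and 130 ± 35.3 with Vehicle. In the same libraries the median summed smooth muscle value was 11400 with Scl-Ab and 16650 with Vehicle, and that of brown adipocyte markers was 3373 with Scl-Ab and 675 with Vehicle. Their part in the result was not tested. In ApoE-KO aortas of week 8, 1.11% of tested genes were lower with Scl-Ab, and 1 of the 12 chains was, Itga5. It averaged 95.4 ± 25.4 with Scl-Ab and 143 ± 26.4 with Vehicle (SD, n = 10 each, limma adjusted p = 0.0485). The median summed smooth muscle value of these aortas was 11160 with Scl-Ab and 13110 with Vehicle, and its part was not tested. Over the mean of the 3 times Itga5 was lower with Scl-Ab in ApoE-KO (-0.46) and in WT (-0.52), and Itga9 in ApoE-KO (-0.38) and in WT (-0.36). Of all tested genes 9.37% in ApoE-KO and 9.26% in WT were lower over that mean.

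Deviations of log2(value + 1) from the group means were correlated over all libraries of both genotypes to see which genes varied together within groups. These correlations are descriptions and share library depth and tissue makeup. Itgb2 and Selplg went together at a Pearson r of 0.902 (Spearman 0.875), and Itgb2 with Ptprc at 0.893 (Spearman 0.841). Icam2 went with Pecam1 at 0.882 (Spearman 0.847), Selp with Pecam1 at 0.739 (Spearman 0.708), and Vcam1 with Pecam1 at -0.054 (Spearman 0.087). Vcam1 went with Icam1 at 0.696 (Spearman 0.669) and with Cd68 at 0.631 (Spearman 0.496). Icam2 and Selp thus varied with an endothelial gene within groups, and Vcam1 with Icam1 and macrophage RNA. Without the 2 farthest libraries these r values were 0.888, 0.868, 0.868, 0.737, 0.056, 0.653 and 0.548. Each kept its sign in every week except that of Vcam1 with Pecam1, which was 0.037, -0.458 and 0.188 in weeks 3, 8 and 16.

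**Figure D5:**
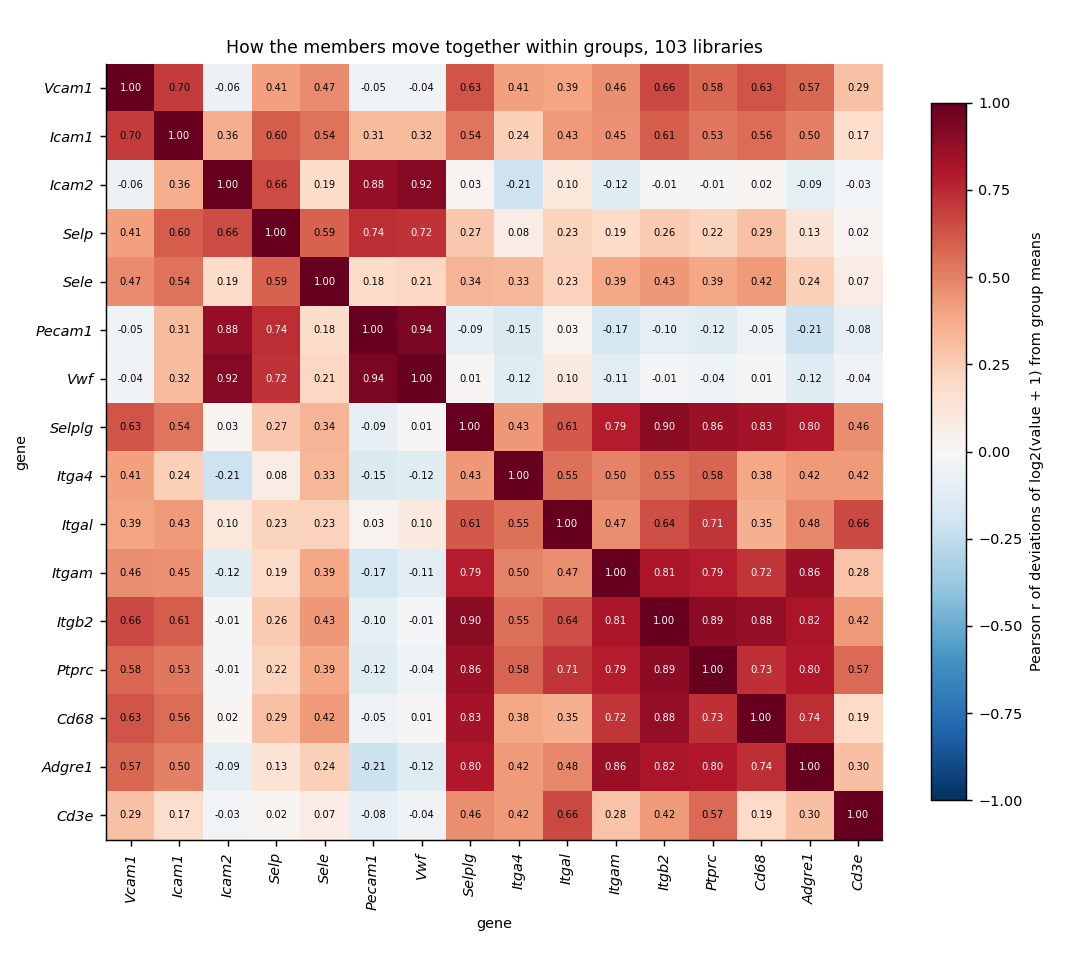
Pearson r between the 10 genes and 6 marker genes over all libraries, on deviations of log2(value + 1) from the group means; red is positive and blue negative. A block of Selplg, Itgam and Itgb2 with Ptprc, Cd68 and Adgre1 and a block of Icam2 and Selp with Pecam1 and Vwf stand out, with Icam2 and Pecam1 at 0.882.

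Among 12945 other genes, the closest by this measure were found for each of the 10. Vcam1 was closest to Cx3cl1 (0.858), which encodes the adhesive chemokine fractalkine, then Cxcl16 (0.807), a membrane-bound chemokine, and Casp4 (0.786). Icam1 was closest to Tnfaip2 (0.768), Ass1 (0.761) and Plcg2 (0.734). Icam2 was closest to Mmrn2 (0.955), an endothelial matrix protein, Bmp6 (0.95) and Nos3 (0.942), the endothelial nitric oxide synthase. Selp was closest to Srgn (0.803), a granule proteoglycan, Nt5e (0.803) and Slco2a1 (0.79). Sele had the weakest likeness of the 10, with B430306N03Rik (0.623), Cxcl1 (0.616), a neutrophil chemokine, and Rai14 (0.602). Its values in the 46 WT libraries were 0.921 or less, where log2(value + 1) shrinks deviations. The part of this in the weak likeness was not tested.

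On the leukocyte side, Selplg, Itgb2, Itgam and Itgal were closest to other genes of blood cells. Selplg was closest to Laptm5 (0.914), a lysosomal protein of leukocytes, Myo1g (0.894) and Inpp5d (0.89), and Itgb2 to Laptm5 (0.925), Nckap1l (0.919) and Cybb (0.914), a subunit of the phagocyte oxidase. Itgam was closest to Pirb (0.879), Arhgap30 (0.863) and Adgre1 (0.863), which encodes the macrophage antigen F4/80. Itgal was closest to Ccl5 (0.786), a chemokine of T cells, Spn (0.779) and Il2rg (0.746), and without the 2 libraries farthest from the median of the Itgal deviations the r with Ccl5 was 0.581. Itga4 was closest to Galnt7 (0.68), Fyb (0.675) and Pik3cg (0.657).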

How the data were processed

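RNA of 57 ApoE-KO and 46 WT aortic arches, 1 animal each, was sequenced as TruSeq stranded mRNA libraries, per the labels' protocols. The authors deposited 1 FPKM-type value per gene symbol and library, under the column name FPKQ, per the file headers (1 file has no header). The build GRCm38 and DESeq2 1.10.1 are named in the submitters' processing notes. The sources used here name no aligner, quantifier, annotation or strand setting, so overlapping genes cannot be told apart. The values are no counts, so no count model was used, depth is unknown and the number of libraries sets the precision.

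The 14637 genes that had 5 or more libraries with a value not under 1 were transformed as log2(value + 1) and fitted by limma 3.58.1 in R 4.3.3 with 12 group means, trended and robust empirical Bayes, two-sided tests and Benjamini-Hochberg adjustment over all 14637, called under an adjusted p of 0.05. Fold changes on this scale understate changes of low genes. Groups came from the sample titles. The 10 genes and all lists were chosen with earlier results of these data known, and the motif letters after the sequences were seen. All 10 genes are named in each comparison, with up to 4 called genes per list and comparison by smallest adjusted p and the 3 genes of highest r per member. The fit was tested on simulated data. Alternatives were a pseudocount of 0.1, no filter, median-of-ratios rescaling, fits of the compared groups alone, array weights, covariates for tissue carry-over, clock genes and run of animal numbers, a replicate block, and leaving out each library. Leaving out the 4 libraries of low correlation, or 6 libraries that stand apart, was chosen after seeing the data. Promoters are from RefSeq (GRCm38.p6), and gene positions from GENCODE M21. Figures were drawn with matplotlib 3.10.9.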

Additional observations from a re-analysis of the deposited data

Results flagged for a closer look

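In 14 of 120 sets of a gene and a group, 1 library lay apart from the rest of its group by Dixon's criterion, which chance meets in about 5% of groups. Vcam1 was low in ApoE-KO Scl-Ab replicate 9 of week 3 (36.9, others 74.5 to 129), in ApoE-KO Scl-Ab replicate 7 of week 16 (86.5, others 164 to 289) and in WT Scl-Ab replicate 2 of week 16 (21.6, others 36.4 to 49.7). Icam1 was high in ApoE-KO Vehicle replicate 8 of week 8 (45.2, others 21.7 to 29.4). Icam2 was high in ApoE-KO Scl-Ab replicate 7 of week 3 (45.9, others 11.1 to 22.2) and low in ApoE-KO Vehicle replicate 9 of week 8 (7.00, others 13.7 to 24.1). Sele was high in ApoE-KO Vehicle replicate 4 of week 3 (6.82, others 1.59 to 2.64), and Selplg in WT Vehicle replicate 4 of week 8 (6.70, others 2.01 to 2.92).

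Itgal was high in 4 groups: ApoE-KO Vehicle replicate 5 of week 3 (10.5, others 0.468 to 1.89), WT Vehicle replicate 4 of week 3 (1.48, others 0.119 to 0.465), ApoE-KO Scl-Ab replicate 10 of week 16 (2.07, others 0.818 to 1.36) and WT Scl-Ab replicate 6 of week 16 (2.51, others 0.236 to 0.607). WT Vehicle replicate 4 of week 16 was high in Itgam (6.17, others 2.05 to 2.94) and in Itgb2 (6.71, others 2.63 to 4.26).

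The ApoE-KO effect on Vcam1 under Vehicle differed between times, being 1.06 larger in week 16 than in week 3 on the log2 scale by limma's test of the difference (adjusted p = 0.0429). The call was lost in 18 of 36 fits that left out 1 library and under 5 other alternatives.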

How the results depend on the processing

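Under the alternatives run, no called result changed sign, and no count of genes called between ApoE-KO and WT moved by over 1.5 times. Counts of called genes moved as follows. Scl-Ab in WT aortas of week 3 (1 gene) gave 0 with the compared groups alone, 0 with carry-over scores, 0 with clock genes, 2 with array weights and 0 to 2 with 1 library left out. Scl-Ab in ApoE-KO aortas of week 3 (0 genes) gave 5 with array weights, 6 without the 6 libraries that stand apart and 0 to 1 with 1 library left out. The mean of 3 times gave 1 gene in WT (0) with array weights, and in ApoE-KO (0) it gave 4 with array weights, 3 without the 6 libraries and 0 to 1 with 1 library left out. The difference between the genotypes' responses in week 3 (0) gave 1 with array weights and 1 without the 6 libraries. The ApoE-KO effect in week 8 against week 3 (0) gave 1 with array weights and 3 without the 6 libraries. In week 16 against week 3 (1) it gave 0 with a pseudocount of 0.1, no filter, the compared groups alone, clock genes or the run of animal numbers, 5 with array weights, 5 without the 6 libraries and 0 to 3 with 1 library left out. The cause was not tested. The 6 libraries were picked after seeing the data and partly by values of these genes, among them ApoE-KO Vehicle replicates 4 and 5 of week 3, so the counts without them support nothing. Without the 4 libraries of low correlation, 200 of 200 results on single genes kept their side of the threshold.

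The labels do not say that replicate numbers pair the samples, and correlations did not decide it. In each pair of groups that was compared, the lowest correlation of same-numbered libraries was below 0, which noise alone can give. Their mean correlation ran from -0.101 (week 16, Vehicle, ApoE-KO with WT) to 0.161 (week 16, Scl-Ab, ApoE-KO with WT). Differently numbered libraries had means of 0.011 and -0.016 there. The lowest correlation of same-numbered libraries was 0.191 between ApoE-KO Scl-Ab and WT Vehicle of week 8, which were not compared. With the replicate block, the ApoE-KO effect in week 16 against week 3 gave 2 called genes, Selplg being added (0.87, adjusted p = 0.0469), and 199 of 200 results on single genes kept their side. Sequencing batches are not assigned to libraries, the unit FPKQ is undefined, and counting error cannot be given without read depth.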
